A study of Homo sapiens with 12 samples.

Results

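The histone genes examined here are those of the replication-linked gene clusters, set against the histone variant genes, in RNA of HEK293T, an established line from human embryonic kidney that makes the large T antigen of the virus SV40. A gene was a member where its current symbol began with H1-, H2AC, H2BC, H3C or H4C followed by a number, or was H2AX, H2AJ, H2AZ1, H2AZ2, H3-3A, H3-3B, MACROH2A1 or MACROH2A2. The files held 81 such genes among 24402 features: 69 cluster genes (H1-1 to H1-6 and all H2AC, H2BC, H3C and H4C genes), 8 variant genes, and 4 linker histone genes outside the clusters, here called solitary linker genes. Every gene was placed by its symbol alone, with no measured value.

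All cells received guide RNAs for 4 sites at IL1RN, the gene of the interleukin 1 receptor antagonist, and plasmid for 1 of 4 proteins, by lipid transfection. The proteins were dCas9-VP64 (the DNA-binding, non-cutting dCas9 with a viral activation domain), dCas9-p300 core (with the catalytic core of the acetyltransferase p300), dCas9-p300 D1399Y (the same core without acetyltransferase activity) and dCas9 alone, with 3 libraries each. The labels say that transfections were done in triplicate and no more, so that the p-values measure only the spread between these libraries, which may be technical. The labels also give each library a code, CV41 for 10 of them and CV42 for core replicate 3 and D1399Y replicate 3, without saying what it stands for. Libraries were made from total RNA with an mRNA kit, so RNAs with a poly(A) tail were the intended material.

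Most histone mRNA is made during S phase from the clusters, and it is the known exception among messenger RNAs of animals: its 3′ end is a conserved stem-loop, bound by SLBP and cut with the help of the U7 snRNP, with no poly(A) tail. Variant histone genes are ordinary genes in this respect, transcribed through the cell cycle with introns or poly(A) tails in most cases, and their proteins replace cluster histones outside replication. Some cluster genes also give a longer, polyadenylated RNA, above all when cells leave the cycle. Counts of cluster genes in an mRNA library can therefore come from such longer RNAs or from tail-less RNA carried over, and the counts alone do not tell these apart.

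The letters that make cluster mRNA different are shown first. The lines give, 5′ to 3′ on the strand of the gene, the 16-base stem-loop found after the stop codon in GENCODE 29 transcripts (GRCh38), in lower case for the 6-base arms that pair with each other and in capitals for the 4-base loop (the arms of H2AC11 include 1 G-U pair). H2BC21 stands for 15 members with identical letters, H2BC5, H4C15 and H2AC11 show changes in the loop or the arms, and H2AX is the 1 variant that holds the motif.
H2BC21, chr1:149886188-149886203, minus strand: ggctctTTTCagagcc
H2BC5, chr6:26158587-26158602, plus strand: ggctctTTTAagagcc
H4C15, chr1:149860769-149860784, minus strand: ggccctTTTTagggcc
H2AC11, chr6:27133515-27133530, plus strand: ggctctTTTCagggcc
H2AX, chr11:119094898-119094913, minus strand: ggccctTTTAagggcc
The histone stem-loop was found in 29 of the 65 cluster genes that have a GENCODE transcript with an annotated stop codon, and in 1 of 8 variants, 0 of 4 solitary linker genes and 36 of all 19562 genes (0.184%). For 32 of the 65 cluster genes every such transcript ended at the stop codon, so that no 3′ UTR was there to search. This was so for H2BC12, H1-2, H2AC17, H2AC20 and H4C1, and it describes the GENCODE 29 transcripts only. In RefSeq the gene span of H2BC12 is 8566 bases, beside 381 in its GENCODE transcript. A polyadenylation signal (AATAAA or ATTAAA) lay within the last 50 bases of a transcript in 20 of 65 cluster genes, 7 of 8 variants, 3 of 4 solitary linker genes and 81.7% of all genes. Both features stood in the same transcript in 17 cluster genes and in H2AX.

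The transcripts with both show how far the annotated RNA runs past the stem-loop. After the stem-loop the transcript went on for 1729 bases in H2BC21, 1479 in H2BC18, 1761 in H2AC11, 1114 in H2AC6, 690 in H4C15, 390 in H2AC25 and 39 in H2BC5. The variant H2AX, whose protein marks DNA breaks when phosphorylated and whose mRNA is known in both a stem-loop and a polyadenylated form, had 1044 annotated bases after its stem-loop. Of the 20 cluster genes with enough counts to test, 18 had a transcript with a stop codon, and 8 of these held both features in 1 transcript, while 9 of 47 cluster genes that were not tested did. Since 5 of those 18 and 27 of those 47 had no annotated 3′ UTR to search, the 2 shares follow the annotation and are not compared. The counts here do not say where along these RNAs the reads lay.

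The promoters of the cluster genes were compared with those of the variants in RefSeq windows of 250 bases before to 50 after each gene start (GRCh38.p14), which were at hand for 64 cluster genes, 8 variants and 3 solitary linker genes. A TATA box (TATAAA, or TTTATA on the other strand) was found in 43 of 64 cluster genes and 3 of 8 variants, against 14% of all 27305 genes with a window. The octamer ATGCAAAT (ATTTGCAT on the other strand), bound in H2B promoters by the factor OCT1, was found in 26 of 64 cluster genes and 1 of 8 variants, H3-3B, against 2.19% of all genes. The CCAAT box (CCAAT or ATTGG), bound by NF-Y, was found in 54 of 64 cluster genes and 7 of 8 variants, against 39.7% of all genes. These are matches of letters, and no binding was measured.

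The lines below give 3 of these windows, with the matches in capitals, which run together where TTTATA and TATAAA overlap in H2BC12: H2BC12, the cluster gene with the most counts, H2BC21, which shares its window with a second tested member, and H2AX.
H2BC12, chr6:27146809-27147108, minus strand: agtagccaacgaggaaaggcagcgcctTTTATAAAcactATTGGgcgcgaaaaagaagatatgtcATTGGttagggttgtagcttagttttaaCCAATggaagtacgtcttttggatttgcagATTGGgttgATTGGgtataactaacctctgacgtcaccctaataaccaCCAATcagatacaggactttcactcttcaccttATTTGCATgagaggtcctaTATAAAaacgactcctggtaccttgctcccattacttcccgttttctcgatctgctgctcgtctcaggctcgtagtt
H2BC21, chr1:149886633-149886932, minus strand: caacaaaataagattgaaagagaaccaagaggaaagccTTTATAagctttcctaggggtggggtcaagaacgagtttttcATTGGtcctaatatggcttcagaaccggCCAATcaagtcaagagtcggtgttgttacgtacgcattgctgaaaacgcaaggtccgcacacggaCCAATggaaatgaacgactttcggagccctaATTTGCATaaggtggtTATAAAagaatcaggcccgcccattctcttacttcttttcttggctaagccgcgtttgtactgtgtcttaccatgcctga
H2AX, chr11:119095416-119095715, minus strand: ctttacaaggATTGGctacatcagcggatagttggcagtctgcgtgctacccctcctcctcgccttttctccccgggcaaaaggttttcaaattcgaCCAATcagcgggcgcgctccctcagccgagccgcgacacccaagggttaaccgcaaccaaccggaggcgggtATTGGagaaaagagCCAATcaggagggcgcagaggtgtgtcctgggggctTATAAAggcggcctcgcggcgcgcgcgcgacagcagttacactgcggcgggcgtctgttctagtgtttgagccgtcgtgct
In H2BC12 the octamer began 46 bases and the TATA box 27 bases before the gene start, and in H2BC21 they began 46 and 30 bases before it. H2AX had a TATA box 31 bases before its start, and the octamer letters were not in its window. The start of H2AC20, which is read the other way, lies within the H2BC21 window, so that this window covers the space between the 2 genes.

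As a check of the labels, IL1RN stood at 73.6 to 89.2 CPM with dCas9-p300 core, 19.3 to 31.3 CPM with dCas9-VP64 and 6.51 to 9.32 CPM with dCas9-p300 D1399Y, against 4.25 to 9.26 CPM with dCas9 (CPM, the count scaled to library size with TMM factors). EP300, whose core is carried by the 2 p300 plasmids, stood at 339 to 449 CPM with the core and 386 to 456 CPM with D1399Y, and at 122 to 139 CPM with dCas9-VP64. With dCas9 it stood at 124, 146 and 51.9 CPM, so that dCas9 replicate 3 was apart from the other 2. The library of dCas9 replicate 3 was also the shallowest, with a total count of 2442960, and the other 11 held 3633590 to 5154627. All 8 markers listed for HEK293 had counts in all 12 libraries, the weakest being PAX2 with 6 to 30. Of markers of other cells, CD3E of T cells had 0 counts over all libraries, COL1A2 of fibroblasts 1, CDH5 of endothelium 2 and PTPRC of leukocytes 21, while COL1A1 had 754.

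Cluster genes gave few counts in these libraries. The 69 cluster genes together had 7361 counts over all 12 libraries, and the 8 variants had 45713. H2BC12 alone gave 31.1% of the cluster counts. Counts are not levels, since longer RNAs give more of them, and comparisons between genes are made here only as counts.

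Of the 69 cluster genes, 18 had at least 100 counts over all libraries, 23 had 1 to 20, and 7 had none. The genes without a count were H1-1, H2AC1, H2BC1, H3C8, H3C11, H4C7 and H4C13, and the solitary linker gene H1-8 of the oocyte was the eighth member at 0. A count of 0 out of 46187841 allows up to 3 counts, or 0.065 CPM, for counting error only. H2AC1 and H2BC1 encode the histones TH2A and TH2B, known from testis.

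The filter for testing, which asks for about 10 counts in at least 3 libraries, kept 20 cluster genes, all 8 variants and 2 solitary linker genes. These 20 held 86.0% of the cluster counts. They were 7 of 17 H2A genes, 7 of 18 H2B genes, 5 of 15 H4 genes, 1 of 6 H1 genes and 0 of 13 H3 genes. The H3 genes together had 479 counts, of which H3C6 had 83 and H3C2 had 80. The 49 cluster genes that were not tested had at most 83 counts each, and the tested ones between 58 and 2290.

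Among the cluster genes left untested were the following, given with total counts over all 12 libraries. Of the H1 genes, H1-4 had 73, H1-3 had 30, H1-5 had 10 and H1-6 had 1. Of the H2A genes, H2AC15 had 32, H2AC12 had 28, H2AC13 had 27, H2AC16 had 25, H2AC21 had 17, H2AC7 and H2AC14 had 14 each, H2AC8 had 11 and H2AC4 had 2. Of the H2B genes, H2BC17 had 56, H2BC26 had 38, H2BC13 had 19, H2BC7 had 8, H2BC8 had 4, H2BC3, H2BC10 and H2BC14 had 2 each and H2BC9 had 1. Of the H4 genes, H4C5 had 49, H4C8 had 21, H4C9 had 11, H4C4 and H4C16 had 9 each, H4C11 and H4C12 had 3 each and H4C6 had 1. Besides H3C6 and H3C2, the H3 genes H3C14 and H3C15, which are near-identical copies, had 70 and 59, H3C10 had 62, H3C13 had 41, H3C1 had 37, H3C4 had 27, H3C12 had 10, H3C7 had 8 and H3C3 had 2. The solitary linker gene H1-7 of testis had 1. Summed over a library, the untested cluster genes came to 9.63 to 40.5 CPM with dCas9, and their means were 23.0 CPM with dCas9-VP64, 18.96 CPM with the core and 18.1 CPM with D1399Y, against 29.3 CPM with dCas9.

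The summed level of the cluster genes differed widely between libraries, most within dCas9 and dCas9-VP64. It was 209, 119 and 119 CPM with dCas9-VP64, 180, 134 and 139 CPM with dCas9-p300 core and 159, 143 and 126 CPM with dCas9-p300 D1399Y, against 273, 189 and 141 CPM with dCas9. The means were 149 ± 52.3 CPM with dCas9-VP64, 150.8 ± 25.1 CPM with the core and 142 ± 16.5 CPM with D1399Y, against 201 ± 67.1 CPM with dCas9 (SD, n = 3 each). All 4 groups overlap, and the highest and the third highest of the 12 libraries are both dCas9.

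The variant sum moved less in percent of its mean in each group, but not in CPM with D1399Y and dCas9. It was 952, 1046 and 984 CPM in the dCas9-VP64 libraries, 945, 947 and 976 CPM with dCas9-p300 core and 959, 1071 and 1019 CPM with dCas9-p300 D1399Y, against 909, 977 and 1245 CPM with dCas9. The variant means were 994 ± 47.7, 956 ± 17.6 and 1016 ± 56.0 CPM with dCas9-VP64, the core and D1399Y, against 1044 ± 178 CPM with dCas9 (SD, n = 3 each). The value of 1245 CPM is dCas9 replicate 3, and without it the dCas9 libraries lie within the range of the other groups or just below it.

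**Figure D1:**
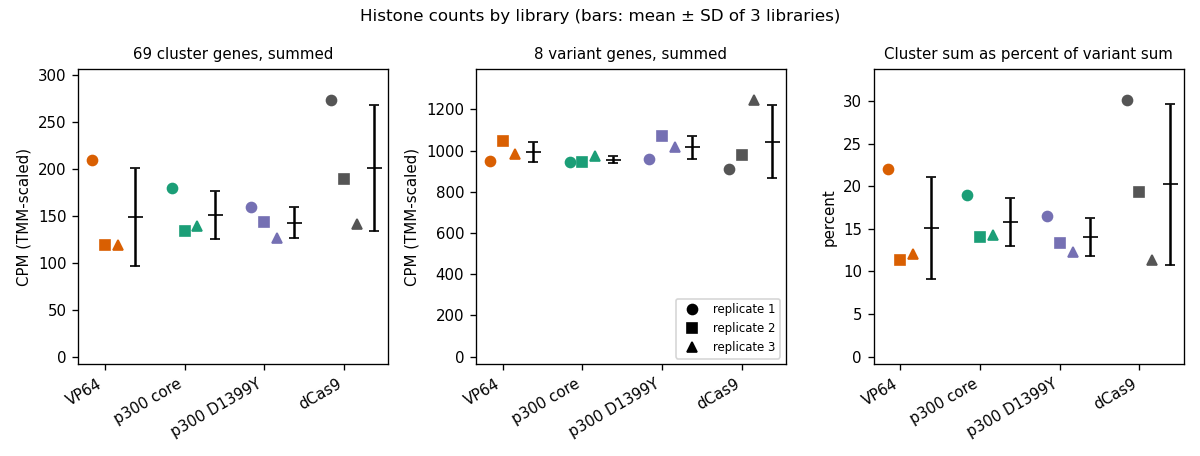
Summed CPM of the 69 cluster genes (left), summed CPM of the 8 variant genes (middle) and the first as a percent of the second (right), by group, with 1 point per library (circle, square and triangle for replicates 1, 2 and 3) and the mean ± SD of 3 libraries as a bar. The circle is the highest point of its group in the left and right panels and the lowest in the middle panel, in all 4 groups, and the dCas9 percent runs from 11.3 to 30.1.

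Within a library the cluster sum was 11.3% to 30.1% of the variant sum, a ratio that does not depend on scaling between libraries. It was 22.0%, 11.3% and 12.1% with dCas9-VP64, 19%, 14.1% and 14.3% with dCas9-p300 core and 16.5%, 13.3% and 12.3% with dCas9-p300 D1399Y, against 30.1%, 19.3% and 11.3% with dCas9. On the log2 scale the ratio differed from dCas9 by -0.38 with dCas9-VP64, by -0.26 with the core and by -0.43 with D1399Y, beside pooled replicate SDs of 0.62, 0.53 and 0.52. The core differed from D1399Y by 0.17 (SD 0.23) and from dCas9-VP64 by 0.11 (SD 0.41), and dCas9-VP64 differed from D1399Y by 0.05 (SD 0.40). All 6 differences were smaller than the spread between replicates.

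The 3 differences from dCas9 share the same 3 dCas9 libraries, and their size turns on which of these are kept. Without dCas9 replicate 1 they were -0.03 with dCas9-VP64, 0.08 with the core and -0.09 with D1399Y, and without dCas9 replicate 3 they were -0.74, -0.62 and -0.79. Within the libraries of code CV41 alone they were -0.375 with dCas9-VP64, -0.195 with the core and -0.34 with D1399Y, while the core differed from D1399Y by 0.14 and from dCas9-VP64 by 0.18, and dCas9-VP64 differed from D1399Y by -0.04. Code CV42 holds no dCas9 library and gives no such values. In bulk samples fewer cells of a type and less RNA per cell cannot be told apart.

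In all 4 groups the library numbered 1 had the highest cluster sum and the lowest variant sum of its 3. The cluster sums of numbers 2 and 3 had no common order between groups. Among the 20 tested cluster genes 6 (H2AC6, H2AC11, H2AC18, H2AC19, H2BC11 and H2BC12) were highest in the library numbered 1 in all 4 groups, and 0 of 8 variants were. The share of all tested genes with this pattern was not counted, and H2AC18 and H2AC19 are near-identical copies. Between libraries of the same number the log2 ratio differed from dCas9 by -0.45, -0.77 and 0.10 with dCas9-VP64, by -0.66, -0.45 and 0.33 with the core, and by -0.86, -0.54 and 0.12 with D1399Y, for numbers 1, 2 and 3 in turn. The sign for number 3 is opposite to that for numbers 1 and 2 in these 3 comparisons, which share the dCas9 libraries. The core differed from D1399Y by 0.20, 0.08 and 0.21, above 0 for all 3 numbers, and from dCas9-VP64 by -0.21, 0.32 and 0.24, and dCas9-VP64 differed from D1399Y by 0.41, -0.23 and -0.03. The labels do not say what a number shares, and its part in the differences between groups was not tested.

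No histone gene passed the test in any comparison. By edgeR's quasi-likelihood test over 14616 genes, with a threshold of 0.05 on the Benjamini-Hochberg adjusted p, 0 of the 30 tested members were called with dCas9-VP64 against dCas9, where 0% of all genes were called. Likewise 0 of 30 were called with the core against dCas9 (0.00684% of all genes, which is IL1RN) and 0 of 30 with D1399Y against dCas9 (0% of all genes). The count was 0 of 30 also with the core against D1399Y (0.00684%), with the core against dCas9-VP64 (0.00684%) and with dCas9-VP64 against D1399Y (0%). DESeq2 and limma-voom also called 0 members in each of the 6 comparisons. At an unadjusted p under 0.05 the number of cluster genes, of 20 tested, was 4 with dCas9-VP64, 5 with the core and 6 with D1399Y, each against the shared dCas9 libraries, where 3.07%, 3.11% and 5.89% of all genes were. It was 1 for the core against D1399Y (1.86% of all genes), 1 for the core against dCas9-VP64 (2.11%) and 0 for dCas9-VP64 against D1399Y (0.657%). No variant or solitary linker gene was under 0.05 in any of them. The core count includes H4C1 and H4C2, and the D1399Y count includes H4C2. Both of these genes passed the filter only through libraries of dCas9 and dCas9-VP64 in which they were high. The near-identical copies H2AC18 and H2AC19 were both counted with the core and with D1399Y, so the counts are not of separate genes and carry no test.

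Against dCas9 the fitted changes of most cluster genes and most variants lay below 0, with the variant medians nearer to it. With dCas9-VP64, 18 of 20 cluster genes were below 0, with a median log2 fold change of -0.51. Of the variants 5 of 8 were below 0 (median -0.065), and of all genes 49.1% (median 0.005). With the core 17 of 20 cluster genes were below 0, with a median of -0.53. Of the variants 7 of 8 were below 0 there (median -0.20), and of all genes 47.5% (median 0.015). With D1399Y 19 of 20 cluster genes were below 0, with a median of -0.685. Of the variants 7 of 8 were below 0 there (median -0.14), and of all genes 49.8% (median 0.002). The 2 tested solitary linker genes were below 0 in each of these comparisons. These 3 sets of values share the dCas9 libraries, and they describe only the 20 genes that passed the filter, some of them through dCas9 libraries. Without dCas9 replicate 1 the cluster medians were -0.165 with dCas9-VP64, -0.215 with the core and -0.30 with D1399Y, and without dCas9 replicate 3 they were -0.765, -0.93 and -1.02. Without dCas9-VP64 replicate 1 the cluster median with dCas9-VP64 was -0.86. The variant medians were above 0 without dCas9 replicate 3, at 0.09 with dCas9-VP64, 0.01 with the core and 0.09 with D1399Y.

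Between the groups that do not use dCas9 alone the cluster genes showed no common direction. The median log2 fold change was 0.015 for the core against D1399Y, with 11 of 20 above 0, and 0.03 for the core against dCas9-VP64, with 10 of 20 above 0. It was 0.23 for dCas9-VP64 against D1399Y, with 14 of 20 above 0, and -0.21 without dCas9-VP64 replicate 1. The variant medians in these comparisons were -0.11, -0.08 and 0.04.

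**Figure D2:**
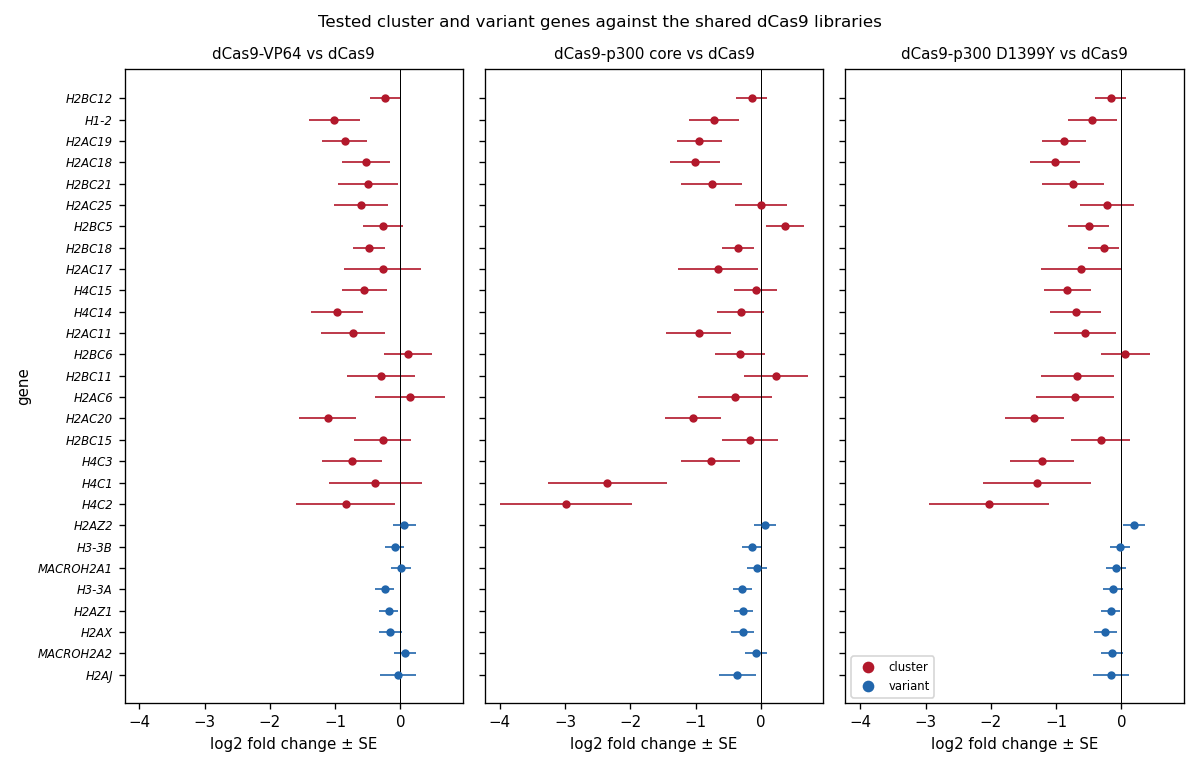
Log2 fold change ± SE (horizontal axis) of the 20 cluster genes (rows in red) and 8 variants (rows in blue) tested for dCas9-VP64, dCas9-p300 core and dCas9-p300 D1399Y, each against the same 3 dCas9 libraries. No gene passed the adjusted threshold; the variants lie between -0.36 and 0.20, and H4C2 reaches -2.98 in the middle panel.

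The cluster genes are taken in turn by histone type, beginning with H2B, which gave 3799 of the cluster counts. H2BC12 encodes an H2B protein of the large chromosome 6 cluster. Its level was 58.8, 41.5 and 40.2 CPM with dCas9-VP64, 63.3, 47.5 and 38.7 CPM with dCas9-p300 core and 63.5, 41.9 and 41.8 CPM with dCas9-p300 D1399Y, against 66.3, 42.6 and 56.3 CPM with dCas9. The libraries numbered 1 held 58.8 to 66.3 CPM and the other 8 held 38.7 to 56.3 CPM, while the groups overlapped fully. Its log2 fold change against dCas9 was -0.23 ± 0.24 with dCas9-VP64, -0.14 ± 0.24 with the core and -0.16 ± 0.24 with D1399Y (SE), so that the cluster gene with the highest count moved less than the median cluster gene.

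H2BC21 is the chromosome 1 gene whose promoter is shown above. It stood at 13.2, 3.05 and 7.38 CPM with dCas9-VP64, 6.89, 5.6 and 7.37 CPM with dCas9-p300 core and 6.79, 6.65 and 6.39 CPM with dCas9-p300 D1399Y, against 18.4, 9.8 and 4.45 CPM with dCas9. The highest 3 libraries were dCas9 replicate 1, dCas9-VP64 replicate 1 and dCas9 replicate 2, and the lowest 2 were dCas9-VP64 replicate 2 and dCas9 replicate 3. Its neighbour H2AC20, an H2A gene read from the same short region, was 2.98, 1.78 and 1.02 CPM with dCas9-VP64, 2.65, 1.93 and 1.58 CPM with dCas9-p300 core and 1.36, 2.89 and 0.798 CPM with dCas9-p300 D1399Y, against 5.38, 3.59 and 3.7 CPM with dCas9. All 9 libraries of the other groups were below all 3 dCas9 libraries for H2AC20. The share of all tested genes with this pattern was not counted, and values of H2AC20 were added after results were seen. Taken 1 group at a time, 2.74% of all tested genes were below dCas9 without overlap with dCas9-VP64, 3.02% with the core and 3.82% with D1399Y. Both H2BC21 and H2AC20 were highest in dCas9 replicate 1. Among the members, H2AC20 had the smallest p of the comparison of D1399Y with dCas9, with a log2 fold change of -1.33 ± 0.45 (adjusted p = 0.633, edgeR), and one of -1.12 ± 0.43 with dCas9-VP64 (adjusted p = 0.929). Across the 22 alternatives of the D1399Y comparison the value ran from -1.95 to -0.99 and the adjusted p went no lower than 0.206.

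H2BC5 is the H2B gene shown above with the loop TTTA. Its level was 6.2, 6.62 and 5.34 CPM with dCas9-VP64, 12.2, 10.4 and 5.53 CPM with dCas9-p300 core and 5.16, 5.49 and 4.79 CPM with dCas9-p300 D1399Y, against 9.35, 6.46 and 5.93 CPM with dCas9. The core libraries 1 and 2 were the highest of all 12. In the comparison of the core with D1399Y, 5.41% of all tested genes were higher without overlap of libraries. H2BC5 was among them, with all 3 core libraries above all 3 of D1399Y, by as little as 5.53 against 5.49 CPM. The log2 fold change was 0.87 ± 0.30 for the core against D1399Y (adjusted p = 1.0, edgeR) and 0.63 ± 0.29 for the core against dCas9-VP64 (adjusted p = 1.0), in each case the smallest p among the members. Of the 325 counts of H2BC5, 83.1% fell in 1 of its 2 RefSeq transcripts. No source used here says how reads shared by transcripts were counted.

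H2BC18, also on chromosome 1, had the smallest spread in percent of its mean among the tested cluster genes. It had 6.7, 6.36 and 4.33 CPM with dCas9-VP64, 5.3, 6.38 and 7.37 CPM with dCas9-p300 core and 7.06, 6.65 and 6.39 CPM with dCas9-p300 D1399Y, against 9.35, 7.17 and 7.78 CPM with dCas9. Its SD over the 12 libraries was 18.4% of its mean, which is no more than the 19.9% that counting alone gives at this level. Beside it, H2BC6 had 118 counts, H2BC11 had 116 and H2BC15 had 111 over all libraries, with SDs of 27.2%, 51.7% and 36.3% of the mean.

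The H2A genes gave 1884 counts. H2AC18 and H2AC19 are near-identical copies on chromosome 1, so that reads can be shared or split between them and the 2 are best read together. H2AC19 stood at 11.7, 4.33 and 6.36 CPM with dCas9-VP64, 7.68, 6.38 and 7.1 CPM with dCas9-p300 core and 8.96, 7.52 and 5.59 CPM with dCas9-p300 D1399Y, against 18.1, 13.2 and 8.89 CPM with dCas9. H2AC18 stood at 13.2, 5.09 and 6.87 CPM with dCas9-VP64, 7.68, 4.06 and 6.58 CPM with dCas9-p300 core and 6.79, 5.78 and 5.32 CPM with dCas9-p300 D1399Y, against 17, 11.7 and 7.04 CPM with dCas9. In both, dCas9 replicates 1 and 2 and dCas9-VP64 replicate 1 were the highest 3 libraries. H2AC19 was below dCas9 by a log2 fold change of -0.94 ± 0.34 with the core (adjusted p = 0.880, edgeR), -0.88 ± 0.34 with D1399Y (adjusted p = 0.633) and -0.85 ± 0.34 with dCas9-VP64 (adjusted p = 0.929). By the same edgeR test H2AC18 had -1.0 ± 0.38 with the core (adjusted p = 0.880) and -1.01 ± 0.39 with D1399Y (adjusted p = 0.633). All 3 libraries of the core were below all 3 of dCas9 for H2AC19, where 3.02% of all tested genes were. All 3 of D1399Y were below all 3 of dCas9 for H2AC18, where 3.82% of all tested genes were.

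H2AC25 is an H2A gene that lies apart from the main clusters, on chromosome 1. It had 7.69, 5.6 and 4.07 CPM with dCas9-VP64, 13, 8.31 and 5.26 CPM with dCas9-p300 core and 8.69, 3.47 and 10.4 CPM with dCas9-p300 D1399Y, against 11.6, 6.46 and 8.52 CPM with dCas9. Its highest library was dCas9-p300 core replicate 1 and its lowest was D1399Y replicate 2, an order unlike that of H2AC18 and H2AC19. H2AC17 of chromosome 6 was 8.93, 2.29 and 4.58 CPM with dCas9-VP64, 3.44, 3.28 and 5.53 CPM with dCas9-p300 core and 1.63, 8.09 and 2.93 CPM with dCas9-p300 D1399Y, against 8.78, 8.13 and 1.48 CPM with dCas9. In H2AC17, 4 libraries held 8.09 to 8.93 CPM (dCas9-VP64 replicate 1, D1399Y replicate 2 and dCas9 replicates 1 and 2) and the other 8 held 1.48 to 5.53 CPM. H2AC11 was 2.98, 2.8 and 2.04 CPM with dCas9-VP64, 2.65, 1.54 and 2.63 CPM with dCas9-p300 core and 4.07, 2.89 and 1.86 CPM with dCas9-p300 D1399Y, against 7.37, 4.07 and 1.11 CPM with dCas9, and its dCas9 libraries held both its highest and its lowest value. H2AC6, with 114 counts, had a log2 fold change of 0.86 ± 0.58 for dCas9-VP64 against D1399Y (adjusted p = 1.0, edgeR), the smallest p of that comparison among the members.

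The linker histone H1-2 was the only one of the 6 cluster H1 genes with enough counts to test. It had 10.2, 5.34 and 5.34 CPM with dCas9-VP64, 9.53, 7.34 and 8.95 CPM with dCas9-p300 core and 10.9, 7.52 and 12.5 CPM with dCas9-p300 D1399Y, against 23.8, 9.33 and 8.89 CPM with dCas9. A single library, dCas9 replicate 1, held 23.8 CPM, and the other 11 held 5.34 to 12.5 CPM. Its log2 fold change was -1.01 ± 0.39 for dCas9-VP64 against dCas9 (adjusted p = 0.929, edgeR) and -0.565 ± 0.40 for dCas9-VP64 against D1399Y (adjusted p = 1.0). Over the alternatives the first of these ran from -1.39 to -0.405.

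The H4 genes gave 634 counts. H4C14 and H4C15 are copies on chromosome 1 with the same stem-loop letters, and they too can share reads. H4C15 was 3.23, 2.04 and 3.05 CPM with dCas9-VP64, 5.3, 3.48 and 2.89 CPM with dCas9-p300 core and 1.9, 2.02 and 2.93 CPM with dCas9-p300 D1399Y, against 5.1, 4.3 and 2.59 CPM with dCas9. H4C14 was 1.99, 2.29 and 2.29 CPM with dCas9-VP64, 5.56, 2.9 and 2.1 CPM with dCas9-p300 core and 3.53, 1.45 and 2.93 CPM with dCas9-p300 D1399Y, against 4.82, 4.07 and 4.07 CPM with dCas9. Both were highest in dCas9-p300 core replicate 1, and H4C15 had a log2 fold change of 0.75 ± 0.36 for the core against D1399Y (adjusted p = 1.0, edgeR).

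H4C1 and H4C2 of chromosome 6 had 67 and 58 counts over all libraries. H4C1 had 15, 5 and 3 counts with dCas9-VP64, 2, 3 and 1 counts with the core and 3, 7 and 1 counts with D1399Y, against 13, 14 and 0 with dCas9. H4C2 had 13, 2 and 3 counts with dCas9-VP64, 3, 0 and 1 counts with the core and 0, 6 and 1 counts with D1399Y, against 12, 15 and 2 with dCas9. Both reached 10 counts in dCas9-VP64 replicate 1 and dCas9 replicates 1 and 2 only, the 3 libraries through which they passed the filter. Among the members, H4C2 had the smallest p of the core comparison with dCas9, with a log2 fold change of -2.98 ± 1.01 (adjusted p = 0.880, edgeR), the lowest fitted value among all 14616 genes there, and a range of -4.25 to -2.29 over its alternatives. With the core against dCas9-VP64, H4C2 had -2.145 ± 1.11 and H4C1 had -1.97 ± 0.95 (adjusted p = 1.0 each, edgeR).

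**Figure D3:**
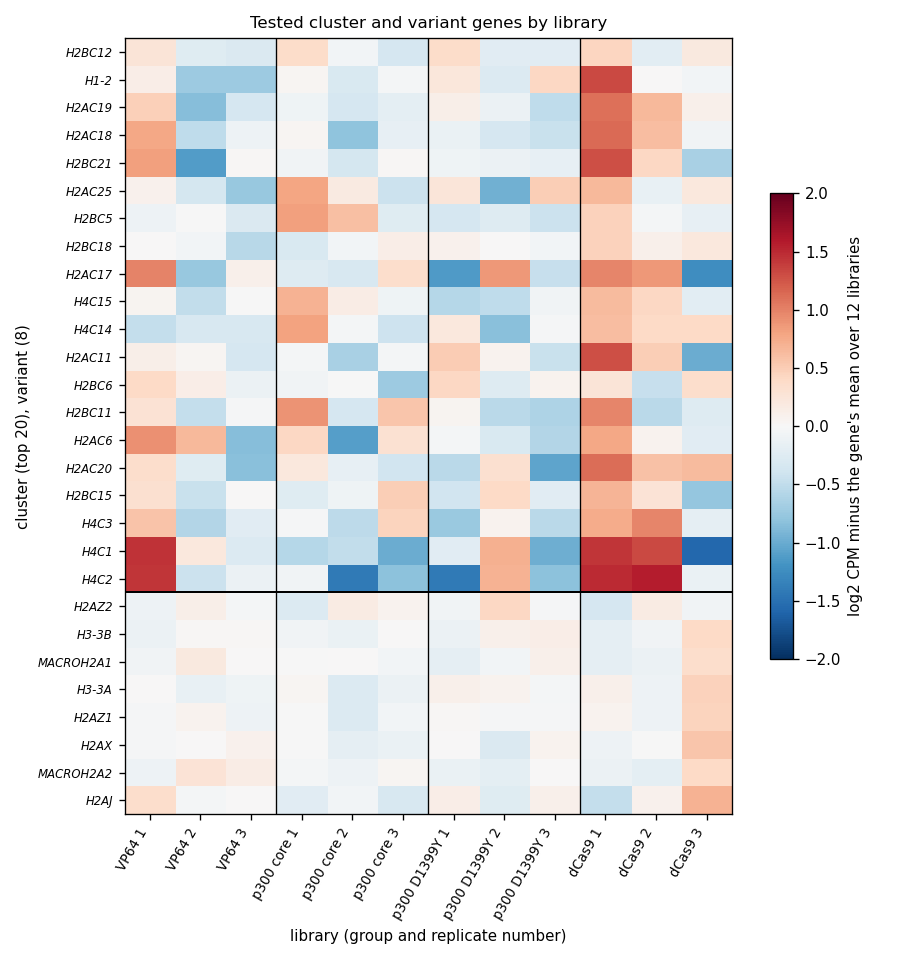
Log2 CPM of each tested cluster and variant gene (rows: 20 cluster genes by falling mean CPM, then 8 variants) in each of the 12 libraries (columns, by group), as the difference from that gene's mean over the libraries, in red above and in blue below, with colours ending at 2 and -2. H4C1 and H4C2 are red in dCas9-VP64 replicate 1 and dCas9 replicates 1 and 2, and more weakly in D1399Y replicate 2. Of the 8 variants, 7 have their deepest red in dCas9 replicate 3.

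Counted as libraries that do not overlap, 3 of 20 tested cluster genes were lower in every dCas9-VP64 library than in any dCas9 library, where 2.74% of all tested genes were. The same held for 2 of 20 with the core (3.02% of all tested genes) and for 5 of 20 with D1399Y (3.82%). No cluster gene was higher without overlap in these 3 comparisons, and no variant was lower or higher without overlap. The 3 comparisons share their dCas9 libraries, and genes that passed the filter through dCas9 libraries are among the 20.

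Some RNAs that carry no poly(A) tail were high in the same libraries as part of the cluster genes. Looked at, and chosen after the members' values were seen, were the RNA polymerase III products RN7SK, RMRP, RPPH1, RN7SL1 and RN7SL2 and the 45S ribosomal precursor RNA45SN5. RN7SK, the scaffold of a complex that holds back transcription elongation, stood at 21.3, 8.91 and 12 CPM with dCas9-VP64, 6.62, 5.22 and 12.4 CPM with dCas9-p300 core and 8.14, 21.4 and 5.59 CPM with dCas9-p300 D1399Y, against 28.1, 24.9 and 7.41 CPM with dCas9. The 4 libraries of RN7SK over 20 CPM are the 4 in which H2AC17 stood over 8 CPM. RMRP, an RNA of a ribonuclease that acts on ribosomal precursors, stood at 6.7, 2.54 and 3.05 CPM with dCas9-VP64, 2.38, 1.74 and 2.89 CPM with dCas9-p300 core and 1.36, 6.65 and 1.6 CPM with dCas9-p300 D1399Y, against 5.95, 5.5 and 3.33 CPM with dCas9. The highest 4 values of RMRP, RN7SL2 and RNA45SN5 are of the same 4 libraries. This was not so for RPPH1, where D1399Y replicate 2 had 0.867 CPM and core replicate 3 had 1.32 CPM, or for RN7SL1, where dCas9-VP64 replicate 1 had 12.4 CPM and core replicate 3 had 13.7 CPM.

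The 5 polymerase III RNAs together had 52.6, 30 and 37.4 CPM with dCas9-VP64, 27.3, 29.4 and 40.5 CPM with the core and 30.4, 55.2 and 28.2 CPM with D1399Y, against 72.8, 61.0 and 24.8 CPM with dCas9. RNA45SN5 had 1180.0, 656 and 989 CPM with dCas9-VP64, 723, 541 and 1070.0 CPM with dCas9-p300 core and 628, 1270.0 and 718 CPM with dCas9-p300 D1399Y, against 1500.0, 1220.0 and 911 CPM with dCas9. The fitted log2 fold change of RN7SK was -0.54 ± 0.51 with dCas9-VP64, -1.36 ± 0.54 with the core and -0.82 ± 0.53 with D1399Y, against dCas9 (adjusted p = 0.929, 0.880 and 0.633, edgeR), on the same side of 0 as most cluster genes. The other 4 tested tail-less RNAs had smaller fitted changes, from -0.43 to -0.25 with dCas9-VP64, from -1.12 to -0.33 with the core and from -0.67 to -0.18 with D1399Y. How much of the cluster counts came with tail-less RNA was not tested.

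**Figure D4:**
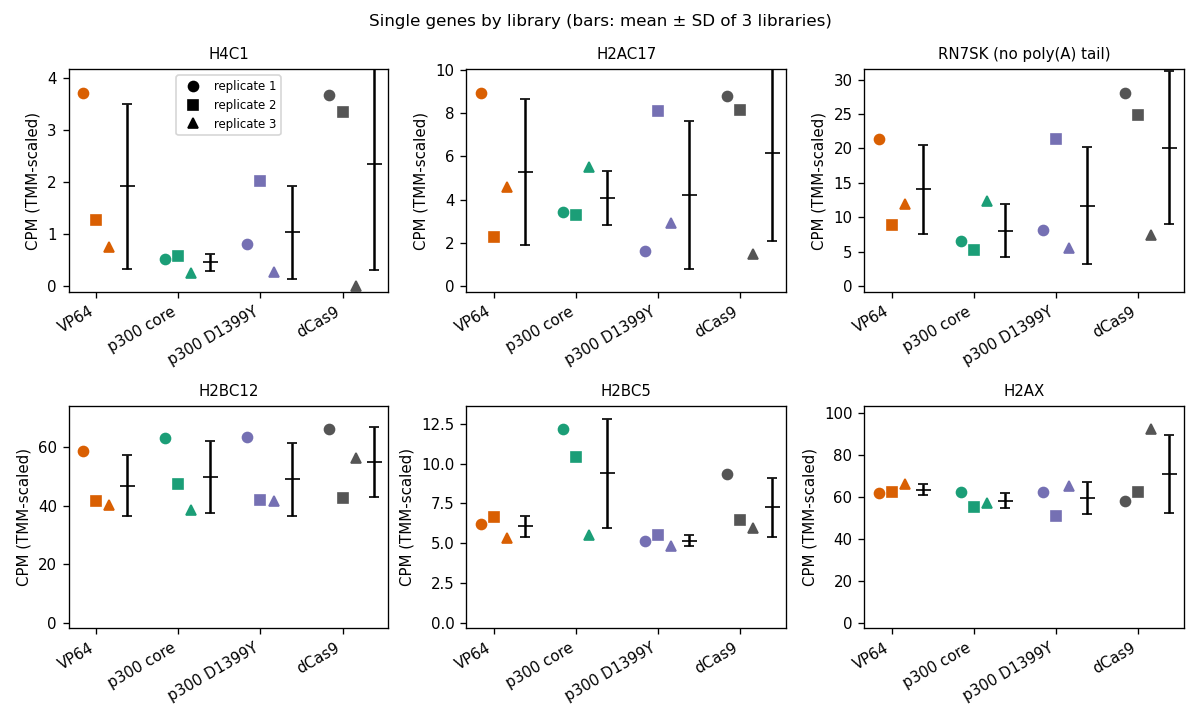
CPM by group for H4C1, H2AC17 and RN7SK (upper row) and for H2BC12, H2BC5 and H2AX (lower row), with 1 point per library (circle, square and triangle for replicates 1, 2 and 3) and the mean ± SD of 3 libraries as a bar. dCas9-VP64 replicate 1, D1399Y replicate 2 and dCas9 replicates 1 and 2 are the highest 4 libraries in each upper panel; in the lower row other libraries are highest, dCas9-p300 core replicates 1 and 2 for H2BC5 and dCas9 replicate 3 for H2AX.

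The cluster genes did not all follow these RNAs. Over the 12 libraries, which share their groups, the Pearson correlation of log2 CPM with RN7SK was 0.83 to 0.87 for H2AC17, H4C1, H4C2 and H4C3 and 0.69 to 0.78 for H2AC11, H2AC18, H2AC19, H2BC15 and H2BC21. It was 0.21 to 0.60 for H1-2, H2AC6, H2AC20, H2BC11, H2BC18 and H4C15. For the rest it was 0.03 for H2BC12, -0.11 for H2BC5, -0.17 for H4C14, -0.19 for H2BC6 and -0.32 for H2AC25. The variants ran from -0.54 for MACROH2A1 to 0.07 for H3-3A. With H2BC12 the correlation was 0.73 for H2AC25, 0.70 for H2BC6 and 0.63 for H4C14, and -0.11 for H2AC17 and H2BC15. These values describe 12 libraries and carry no test, and at the counts of H4C1 or H4C2 a single library can set them.

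A profile was made by adding the log2 CPM values of the 20 tested cluster genes in each library, which is not their summed CPM. Among genes outside the histones, the 5 whose log2 CPM was most like this profile over the 12 libraries were HS3ST3A1 (Pearson r = 0.89), SHISA2 (0.85), SLC20A1 (0.84), FBXL19-AS1 (0.83) and TERF2 (0.82). Of the tail-less RNAs, RN7SK had 0.75 (rank 33 among 14586 genes), RNA45SN5 0.69 (rank 103), RN7SL1 0.69 (rank 112), RMRP 0.68 (rank 117) and RN7SL2 0.615 (rank 271). HS3ST3A1 encodes a sulfotransferase of heparan sulfate, SLC20A1 a phosphate transporter and TERF2 a protein of telomeres.

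The spread of the cluster genes over all 12 libraries was wider than counting error in most cases. The SD over the libraries was 18.4% to 107% of the mean for the tested cluster genes, 0.85 to 2.96 times what counting alone gives, with a median of 1.79 times. For the variants it was 11.5% to 24.6% of the mean, 1.5 to 4.39 times counting error, with a median of 2.81 times. In percent of the mean the variants were thus steadier, and measured against their smaller counting error they were not. H2BC12, with counts near those of H2AX, had an SD of 21.1% of its mean, beside 16.2% for H2AX.

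**Figure D5:**
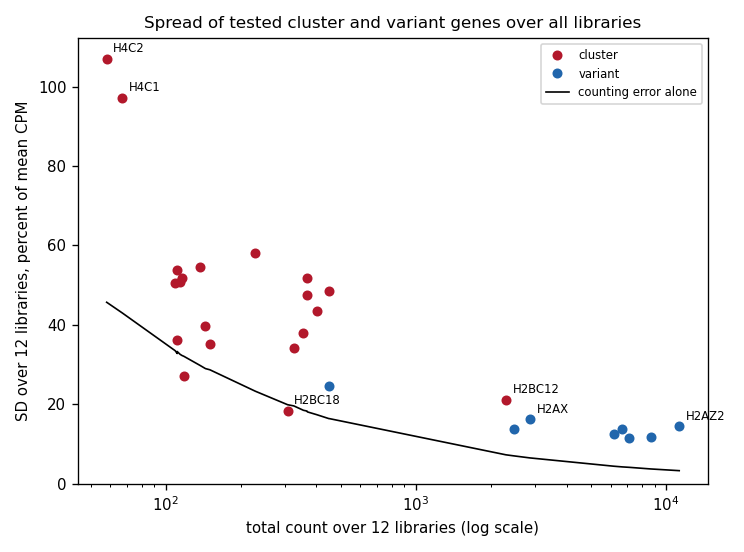
SD over the 12 libraries as a percent of the mean CPM (vertical axis) against the total count over all libraries (horizontal axis, log scale) for the tested genes, 20 cluster genes in red and 8 variants in blue. The black line gives the spread that counting alone would leave; H4C2 (107%) and H4C1 (97.2%) lie farthest above it and H2BC18 (18.4%) lies just below it.

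The variants were measured with far more counts. H2AZ1 and H2AZ2 encode the 2 H2A.Z proteins, which sit at promoters and are placed there by remodelling complexes. H2AZ2 stood at 225, 264 and 235 CPM with dCas9-VP64, 201, 271 and 253 CPM with dCas9-p300 core and 229.6, 325 and 239 CPM with dCas9-p300 D1399Y, against 191, 271 and 231 CPM with dCas9. D1399Y replicate 2 was the highest library and dCas9 replicate 1 the lowest. H2AZ1 stood at 134, 142 and 126 CPM with dCas9-VP64, 135, 112 and 130.2 CPM with dCas9-p300 core and 138, 134 and 134 CPM with dCas9-p300 D1399Y, against 143, 127 and 185 CPM with dCas9. Apart from dCas9 replicate 3, all H2AZ1 libraries lay between 112 and 143 CPM, and the groups overlapped. Of the 11291 counts of H2AZ2, 50.3% fell in 1 of its 5 RefSeq transcripts.

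H3-3A and H3-3B encode the same protein, H3.3, which is deposited outside replication. H3-3A stood at 148, 132 and 138 CPM with dCas9-VP64, 150.4, 121 and 134 CPM with dCas9-p300 core and 157, 154 and 142 CPM with dCas9-p300 D1399Y, against 157, 137 and 202 CPM with dCas9. H3-3B stood at 175, 194 and 193 CPM with dCas9-VP64, 181, 174 and 190.2 CPM with dCas9-p300 core and 176, 204 and 209 CPM with dCas9-p300 D1399Y, against 168, 181 and 249.7 CPM with dCas9. The highest value of both was dCas9 replicate 3. H3-3A had the smallest p of a variant in 3 of the 6 comparisons, with a log2 fold change of -0.285 ± 0.15 for the core against dCas9 (adjusted p = 0.880, edgeR), -0.24 ± 0.15 for dCas9-VP64 against dCas9 (adjusted p = 0.929) and -0.16 ± 0.15 for the core against D1399Y (adjusted p = 1.0).

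MACROH2A1 and MACROH2A2 encode the macroH2A proteins, known from the inactive X chromosome and other silent chromatin. MACROH2A1 stood at 147, 178 and 156 CPM with dCas9-VP64, 155, 156 and 148 CPM with dCas9-p300 core and 137, 149.7 and 166 CPM with dCas9-p300 D1399Y, against 136, 142 and 199 CPM with dCas9. MACROH2A2 stood at 50.1, 64.9 and 59.3 CPM with dCas9-VP64, 52.2, 49.8 and 55 CPM with dCas9-p300 core and 48.9, 46.8 and 54 CPM with dCas9-p300 D1399Y, against 49.3, 46.6 and 70.8 CPM with dCas9. Both were highest in dCas9 replicate 3, and dCas9-VP64 replicate 2 came next in both. MACROH2A2 had a log2 fold change of 0.22 ± 0.17 for dCas9-VP64 against D1399Y (adjusted p = 1.0, edgeR), the smallest p of a variant there. The 4 RefSeq transcripts of MACROH2A1 held 23.4% to 25.8% of its counts each.

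H2AX and H2AJ complete the variants. H2AX stood at 61.5, 62.3 and 66.2 CPM with dCas9-VP64, 62.2, 55.2 and 56.8 CPM with dCas9-p300 core and 62.4, 50.9 and 65.2 CPM with dCas9-p300 D1399Y, against 58.1, 62.2 and 92.2 CPM with dCas9. Its 11 libraries other than dCas9 replicate 3 lay between 50.9 and 66.2 CPM, and its log2 fold change was -0.24 ± 0.17 for D1399Y against dCas9 (adjusted p = 0.633, edgeR). H2AJ, an H2A known to build up in senescent human fibroblasts, stood at 12.4, 9.41 and 9.67 CPM with dCas9-VP64, 8.21, 9.27 and 7.63 CPM with dCas9-p300 core and 10.6, 8.09 and 10.4 CPM with dCas9-p300 D1399Y, against 6.8, 10.3 and 15.9 CPM with dCas9. All 3 core libraries of H2AJ were below all 3 of dCas9-VP64, with a log2 fold change of -0.32 ± 0.28 (adjusted p = 1.0, edgeR), and its dCas9 libraries held both its lowest and its highest value. Of all tested genes, 4.64% were lower without overlap in the core than in dCas9-VP64.

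The linker histone gene H1-10 lies outside the clusters. It stood at 55.3, 58.3 and 61.6 CPM with dCas9-VP64, 77.3, 56.8 and 66.3 CPM with dCas9-p300 core and 58.9, 47.1 and 71.3 CPM with dCas9-p300 D1399Y, against 65.7, 53.6 and 92.6 CPM with dCas9. Its highest library was dCas9 replicate 3 and its lowest D1399Y replicate 2, and the groups overlapped. Against dCas9, H1-10 had log2 fold changes of -0.27 with dCas9-VP64, -0.07 with the core and -0.25 with D1399Y, each with an adjusted p of at least 0.647 (edgeR).

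The genes that act on histone RNA and histones showed no called change. Of 31 genes of histone mRNA regulation and 3′ end processing, 30 of histone chaperoning and deposition, 25 of S phase and replication and 10 of growth arrest, all were tested and 0 were called in any of the 6 comparisons by edgeR. The median log2 fold changes of the processing list were 0.02, 0.01 and 0.02 with dCas9-VP64, the core and D1399Y against dCas9, and those of the chaperone list were -0.01, -0.065 and -0.04. The growth arrest list had medians of -0.015, -0.17 and -0.055. The S phase list had medians of -0.01, -0.08 and -0.01, and with the core 20 of its 25 genes were below 0, beside 47.5% of all genes.

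SLBP, which binds the stem-loop and rises in S phase, had log2 fold changes of -0.09 ± 0.13, -0.19 ± 0.13 and -0.02 ± 0.13 with dCas9-VP64, the core and D1399Y against dCas9. NPAT, the coactivator of cluster genes, had 0.19 ± 0.27, 0.16 ± 0.27 and 0.44 ± 0.27. CCNE2, a cyclin of the entry into S phase, reached 0.535 ± 0.23 with D1399Y, and LSM10, a subunit of the U7 snRNP, reached -0.52 ± 0.26 there (adjusted p = 0.633 each, edgeR).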

How the data were processed

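RNA of 12 HEK293T libraries in 4 groups of 3 was measured by RNA-seq. The deposited values are read counts per RefSeq transcript, not normalized; per the submitters' processing notes, the build was hg19 and the tools named are Bowtie2, CASAVA, DESeq2 1.6.2, R 3.1.2 and SAMtools, with no roles given. Total counts per library ran from 2442960 to 5154627, and intervals or floors cover counting error only.

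Of 40709 transcript rows, 39324 were named from the RefSeq table and 501 from GENCODE 29, both for GRCh38, and summed per gene; the 884 rows left unnamed held 1.121% of the counts. The test was that of edgeR 4.0.16, run in R 4.3.3 (TMM factors, filterByExpr with a minimum of 10 counts, quasi-likelihood test, Benjamini-Hochberg adjustment over 14616 genes, threshold 0.05), in 1 fit of all 12 libraries and 6 comparisons. Alternatives were DESeq2 1.42.0, limma-voom 3.58.1, other scaling and filters, rows not summed, the replicate number as a block, code CV41 alone and each library left out. The procedure was tested on simulated data.

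The members and lists were chosen with earlier results of these data known. Values per library are given for the 8 variants and the 12 tested cluster genes of highest mean CPM, and fold changes for the 3 cluster genes and the 1 variant of smallest p in each comparison; values of H2AC20, H1-10 and the tail-less RNAs, and fold changes of H2BC12 and H1-10, were added after these were seen. Some members and markers are not reported here.

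Whether replicate numbers pair libraries was checked by correlating deviations from group means over 12061 genes. All 3 correlations were over 0.1 for D1399Y and dCas9 (0.23, 0.6 and 0.61) and for the core and dCas9-VP64 (0.27, 0.29 and 0.38), and not for the other 4 comparisons. The labels do not say what the numbers share.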

Additional observations from a re-analysis of the deposited data

How the results depend on the processing

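No histone gene was called in any of 132 repeats of the 6 comparisons (22 alternatives each), and all 520 repeats of the named fold changes kept their direction and stayed short of the threshold. With the replicate block 0 members were called in each comparison, and the cluster medians were -0.53 with dCas9-VP64, -0.495 with the core and -0.68 with D1399Y, against dCas9; the pairing changed no call. Leaving out 1 library at a time, the log2 ratio of cluster to variant sums ran from -0.738 to -0.034 for dCas9-VP64, from -0.624 to 0.08 for the core and from -0.79 to -0.086 for D1399Y, each against dCas9. It ran from 0.025 to 0.288 for the core against D1399Y, from -0.061 to 0.417 for the core against dCas9-VP64 and from -0.251 to 0.227 for dCas9-VP64 against D1399Y. Scaling factors cancel in this ratio by construction. Depth limits the cluster genes: 49 of 69 had too few counts to test, and counting error alone leaves a spread of 43% of the mean for H4C1 and 45.7% for H4C2.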

Other observations

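Histone-like genes that the symbol rule leaves out also had counts. H3-5, an H3.3-like gene, had 697 counts over all 12 libraries, the pseudogene H2BW4P had 174, the antisense gene H1-10-AS1 had 136, the pseudogene H2BC20P had 75 and H2BW2 had 66. H1-10-AS1 lies against H1-10, and no source used here says that counting used strand: the counts of the pair cannot be told apart.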
